A study of Rattus norvegicus with 11 samples.

Results

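Among the genes measured in rat spinal cord, 95 were lower in every spinal cord stimulation (SCS) library than in each of the naive and sham libraries, while their sham and naive means lay close together. They were selected on their own expression values in the 11 libraries, out of 32623 gene IDs in the table. Counts were scaled by the column total to CPM, the usual unit that sets libraries to a common depth, and y is log2(CPM + 0.5). A gene was kept when its mean was at least 10 CPM, when its highest SCS value of y lay below the lowest of the other 8 libraries, when mean y was at least 0.2 lower in SCS than in sham, and when mean y of sham and naive differed by at most 0.09. These values chose the genes, so the differences between the groups are given as a description and support no test.

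All rats were adult males of 350 to 400 g, and the tissue was ipsilateral spinal cord. The Naive group had 3 libraries. The PTX+Sham SCS group (5 libraries, "sham") was given paclitaxel (PTX) intraperitoneally, with 1.5 mg/kg per injection and injections on days 1, 3, 5 and 7, and sham SCS. The PTX+SCS group (3 libraries, "SCS") had the same drug schedule and was stimulated daily at 50 Hz with 0.2 ms pulses, at 80% MoT as the labels write the current. The labels do not say what sham SCS consisted of, or what naive rats were given. Sham and SCS rats share the drug, whereas naive and sham rats differ in drug and sham SCS together, which cannot be told apart. The labels do not say at which level of the cord the tissue was taken or whether animals were pooled. Libraries are named by group and by the number in their title (naive 1 to 3, sham 1 to 5, SCS 1, SCS 2 and SCS 5). The titles mark SCS libraries with S and sham libraries with X, and the group label was followed. The letter S alone could also be read as sham. If the group labels of these libraries were exchanged, the genes described here would be those lower only with sham SCS, and every SCS minus sham value would change its sign.

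Paclitaxel stabilises microtubules and stops tumour cells from dividing. It also harms the long axons of sensory neurons, and a painful neuropathy is a common side effect. SCS applies electrical pulses to the dorsal columns of the cord, where large sensory fibres run, and is used to relieve chronic pain. The dorsal horn, where pain fibres end on spinal neurons, is one of the places where it is thought to act. Each library is poly(A)-selected RNA of homogenised tissue, a mixture of neurons, glia, vessel cells and immune cells. Fewer cells of a type and less RNA per cell therefore cannot be told apart in any value below.

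The table lists Ensembl gene IDs without names, and 0 of the 32623 IDs could be paired with a symbol through the gene table used here. Gene functions, markers of spinal cord cell types and sequences are therefore not given, and the tissue label was not checked against its markers. By the rule set for naming genes, 2 IDs are printed: the selected gene with the largest difference and the one with the highest level. Other selected genes are given by their rank from 1 to 95, where rank 1 has the lowest SCS minus sham difference.

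Libraries held 11243288 to 56775931 counts, with counts in 18105 to 20531 genes. Naive 3 was the deepest library and sham 4 the shallowest. The smallest count behind any value of a selected gene was 121, in sham 4. Counting error alone has an SD of 0.13 on the log2 scale at that count, and of 0.04 at the median count of 1092 per gene and library.

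Each condition of the rule narrowed the list. Of 10300 genes with a mean of at least 10 CPM, 282 (2.74%) had their 3 SCS libraries below the other 8, and 128 of these were lower than sham by at least 0.2 in mean y. The last condition kept 95 and left out 33, of which 31 had a sham mean below the naive mean and 2 above it. Most genes left out at that step thus stood lower in sham than in naive as well as in SCS. In the opposite direction, 629 of the 10300 genes had their SCS libraries above the other 8, and the mirror image of the whole rule found 150 genes.

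**Figure D1:**
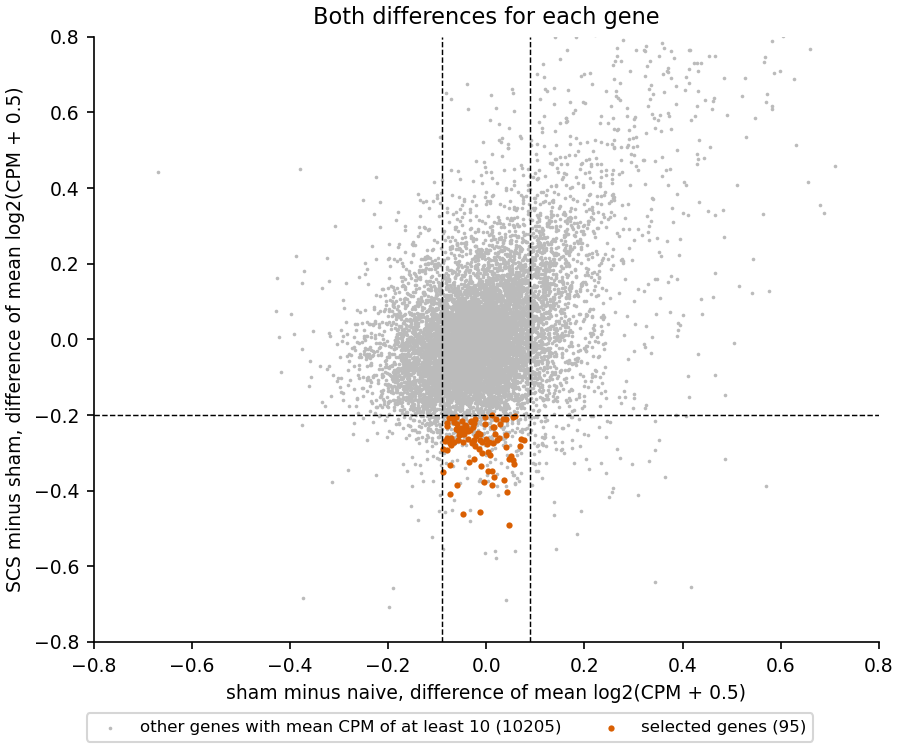
Each point is a gene with a mean of at least 10 CPM; the x axis is mean log2(CPM + 0.5) in sham minus naive and the y axis is SCS minus sham, with dashed lines at the limits of the rule. The 95 selected genes (orange) fill the region below -0.2 and between -0.09 and 0.09, where grey points are genes whose libraries overlapped; 166 of the 10300 genes lie outside the plotted range.

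The differences were small and of similar size across the list. The median of SCS minus sham was -0.26 in y (interquartile range -0.30 to -0.23, lowest -0.49, highest -0.20). SCS levels were therefore 71.2% to 87.0% of sham levels on this scale, with a median of 83.3%. Only 5 genes had a difference of -0.4 or lower and 23 had -0.3 or lower, whereas 38 were above -0.25. Over all 10300 genes the median was -0.01. Sham minus naive, which the rule held within 0.09, had a median of -0.02, and 62 of the 95 genes were below 0 and 33 above it. SCS minus naive ran from -0.51 to -0.14, with a median of -0.28.

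The separation from the other libraries was narrow for many of the genes. The gap in y between the highest SCS library and the lowest of the other 8 had a median of 0.05, and it was under 0.05 in 45 genes and at least 0.1 in 19. The largest gap was 0.20. These gaps are of the size of the counting error at the median count, so which genes sit just inside the rule depends on small differences between single libraries.

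ENSRNOG00000024506, at rank 1, had the largest difference and the largest gap. Its level was 14.5, 18.3 and 14.2 CPM in naive 1 to 3, and 15.04, 17.7, 14.5, 15.9 and 17.7 CPM in sham 1 to 5. In SCS 1, SCS 2 and SCS 5 it was 10.4, 11.4 and 12.3 CPM. The sham and naive libraries overlapped fully, and SCS 5, the highest stimulated library, lay below naive 3, the lowest of the others. The group means were 15.7 ± 2.2 CPM in naive (SD, n = 3), 16.2 ± 1.5 CPM in sham (SD, n = 5) and 11.4 ± 0.98 CPM in SCS (SD, n = 3).

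ENSRNOG00000046005, at rank 70, was the most abundant of the selected genes. It was at 8411, 7833 and 8095 CPM in naive 1 to 3, at 8247, 8702, 7473, 8297 and 8300 CPM in sham 1 to 5, and at 6408, 7258 and 7286 CPM in SCS 1, SCS 2 and SCS 5. Sham 3 came closest to the stimulated libraries, with a gap of 0.04 in y, and SCS 1 stood below SCS 2 and SCS 5. Group means were 8113 ± 289 CPM in naive (SD, n = 3), 8204 ± 448 CPM in sham (SD, n = 5) and 6984 ± 499 CPM in SCS (SD, n = 3).

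**Figure D2:**
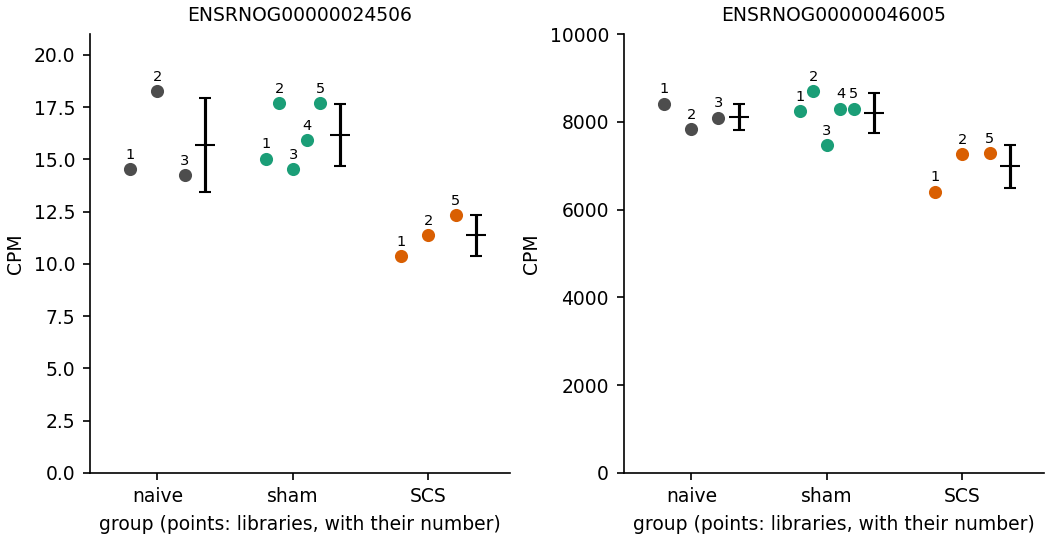
Points are the CPM of 1 library each, marked with the library number, for ENSRNOG00000024506 (left) and ENSRNOG00000046005 (right); the bars show the group mean and its SD. In both panels all SCS points lie under all naive and sham points, widely for the left gene (at most 12.3 against at least 14.2 CPM) and narrowly for the right one (at most 7286 against at least 7473 CPM).

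The next genes in rank differed in how far the SCS libraries stood from the others. The gene at rank 3 was at 60.2, 47.9 and 64.7 CPM in SCS 1, SCS 2 and SCS 5, against 71.7 to 86.7 CPM in sham and 69.6 to 84.5 CPM in naive libraries. The gene at rank 4 was at 122, 117 and 137 CPM in the SCS libraries, against 157 to 183 CPM in sham and 174 to 177 CPM in naive libraries. Both were clear of the other libraries, by gaps of 0.11 and 0.19 in y. The genes at ranks 2 and 5 were not, with gaps of 0.005 and 0.006: SCS 5 at 19.77 CPM nearly met sham 4 at 19.83 CPM for rank 2, and SCS 2 at 49.05 CPM nearly met sham 4 at 49.27 CPM for rank 5. At rank 5 the size of the difference also leaned on sham 2, which stood at 84.7 CPM against 49.3 to 66.8 CPM in the other sham libraries.

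At the high end of abundance, the gene second in level (rank 92) was at 3165 ± 49 CPM in naive (SD, n = 3), 3161 ± 154 CPM in sham (SD, n = 5) and 2740 ± 140 CPM in SCS (SD, n = 3). The third (rank 51) was at 700 ± 7 CPM, 667 ± 42 CPM and 557 ± 18 CPM in the same groups. The spread within groups was widest in sham for both genes.

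The selected genes covered the range of expression above the minimum. Their median level was 50.6 CPM, against 41.1 CPM over the 10300 genes. At least 100 CPM was reached by 26 of the 95 (27.4%, against 20.4% of the 10300), and 16 (16.8%, against 22.6%) were below 20 CPM. The median difference was -0.30 for the 16 genes below 20 CPM, -0.25 for the 53 from 20 to 100 CPM and -0.26 for the 26 above. Together the 95 genes took 20008 ± 141 CPM in naive (SD, n = 3), 19915 ± 735 CPM in sham (SD, n = 5) and 16824 ± 741 CPM in SCS libraries (SD, n = 3). Without the most abundant gene the sums were 11896 ± 198, 11711 ± 349 and 9840 ± 547 CPM.

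**Figure D3:**
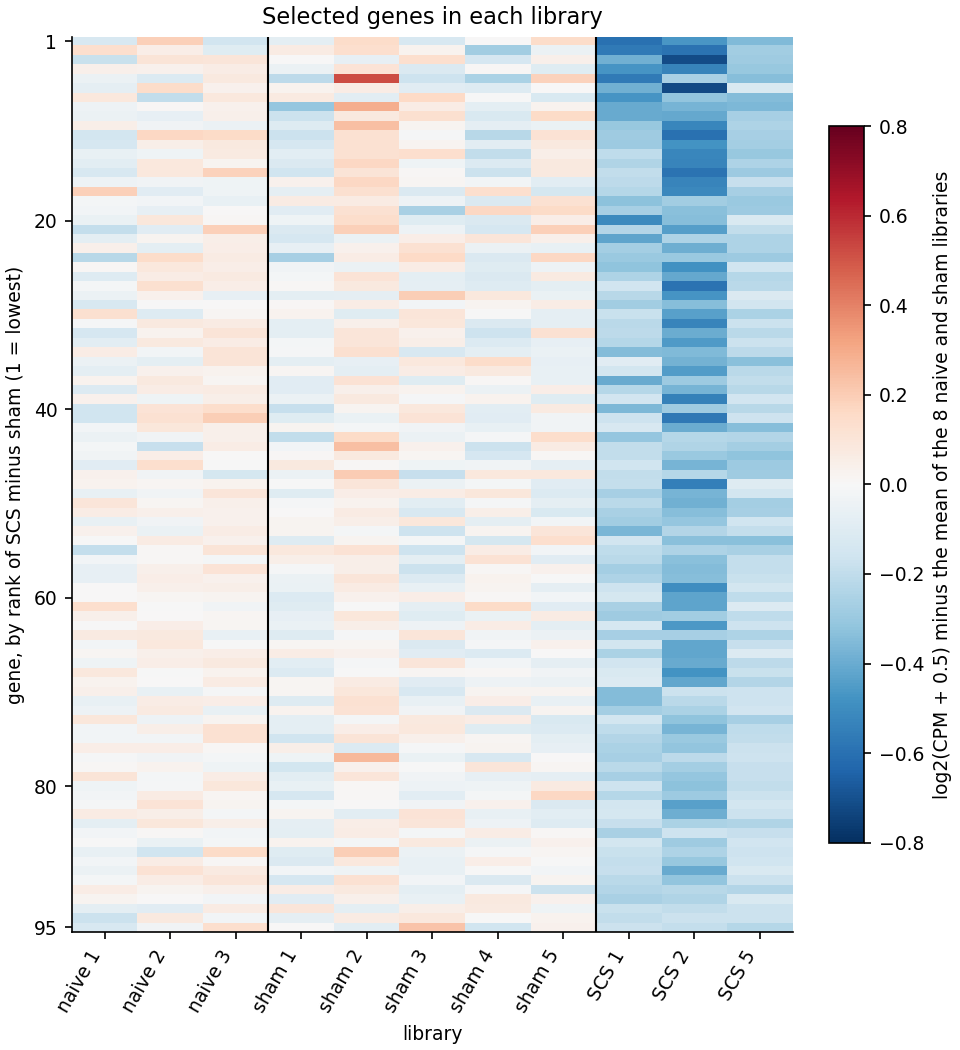
Rows are the 95 selected genes ordered by SCS minus sham, columns are the 11 libraries, and colour is log2(CPM + 0.5) minus the mean of the 8 naive and sham libraries. Values ran from -0.72 to 0.52; the 3 SCS columns are blue throughout, SCS 2 is the darkest, and among the sham columns sham 2 is mostly red.

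The stimulated libraries did not contribute equally. Relative to the mean of the 8 other libraries, the selected genes had a median deviation in y of -0.23 in SCS 1, -0.37 in SCS 2 and -0.20 in SCS 5. SCS 2 was the lowest of the 3 in 70 genes (73.7%), where it was lowest in 41.2% and highest in 34.8% of all 10300 genes. SCS 1 was lowest in 19 (20%, against 34.2% of all 10300) and SCS 5 in 6 (6.32%, against 24.6%). The most frequent order, in 42 genes, ran from SCS 2 through SCS 1 to SCS 5. SCS 5 was the highest of the 3 in 56 genes (58.9%, against 34.6% of all 10300). Over all 10300 genes the median deviations of these libraries were -0.01, -0.02 and 0.01. The rule kept only genes low in all 3, so the larger deviations of the selected genes follow from the choice. SCS 2 had the widest spread over all 10300 genes, with quartiles of -0.18 and 0.16. They were -0.11 and 0.10 in SCS 1, and -0.07 and 0.11 in SCS 5. Whether this spread accounts for the place of SCS 2 in the selected genes was not tested.

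The 8 other libraries also differed among themselves. The median deviation of the selected genes was 0.06 in sham 2 and between -0.06 and -0.02 in the other sham libraries, and sham 2 was the highest of the 5 sham libraries in 42 genes (44.2%, against 17.0% of all 10300). In naive 1 to 3 it was -0.02, 0.03 and 0.04. The lowest of the 8 libraries was sham 1 in 24 genes (25.3%, against 20.3% of all 10300) and sham 4 in 22 (23.2%, against 13.3%). It was sham 2 in 2 genes (2.11%, against 8.55%) and naive 3 in 1 (1.05%, against 3.30%). Sham 2 thus stood high and SCS 2 low in the same list of genes.

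Within groups, the selected genes tended to deviate together. After each group mean was subtracted, the median Pearson r between pairs of selected genes was 0.29 across the 11 libraries (4465 pairs, interquartile range 0.02 to 0.53), against 0.03 for pairs of the 10300 genes. This is a description over genes that share the same libraries, and the requirement that groups not overlap also limits how each gene can vary within a group. The value was 0.17 without SCS 2 and between 0.25 and 0.33 without any other single library. The median SD of y within groups was 0.06 in naive, 0.09 in sham and 0.10 in SCS for the selected genes, and 0.06, 0.11 and 0.11 for all 10300.

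The rule did not leave out any library, so the same measure was taken in libraries that had no part in the choice. For each of the 15 pairs of 1 SCS and 1 sham library, genes were chosen by the rule in the other 9 libraries and then compared between the 2 left out. The rule found 81 to 472 genes in this way, of which 44 to 91 were among the 95. The share of them lower in the left-out SCS library had a median of 68.3% over the 15 pairs (range 38.3% to 84.6%), against a median of 51.0% of all genes (36.4% to 56.9%). It exceeded the share over all genes in 14 of 15 pairs.

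The left-out differences were smaller than those in the choosing libraries. The median difference in y over the chosen genes was -0.09 in the middle pair (range -0.26 to 0.06), where the rule had required -0.2 or lower. It was below 0 in 13 pairs and at -0.2 or lower in 3, all of them with SCS 2 left out. With SCS 2 left out the median over its 5 pairs was -0.23, with SCS 1 it was -0.07, and with SCS 5 it was -0.01. These sizes are not directly comparable, since SCS 2 had the widest spread over all genes. The rule also chose 81 to 142 genes with SCS 2 left out, against 213 to 472 with SCS 1 and 262 to 458 with SCS 5. The 2 pairs above 0 were SCS 1 with sham 5 (0.06) and SCS 5 with sham 1 (0.01). These pairs share libraries with each other and are not independent, so no test was made.

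**Figure D4:**
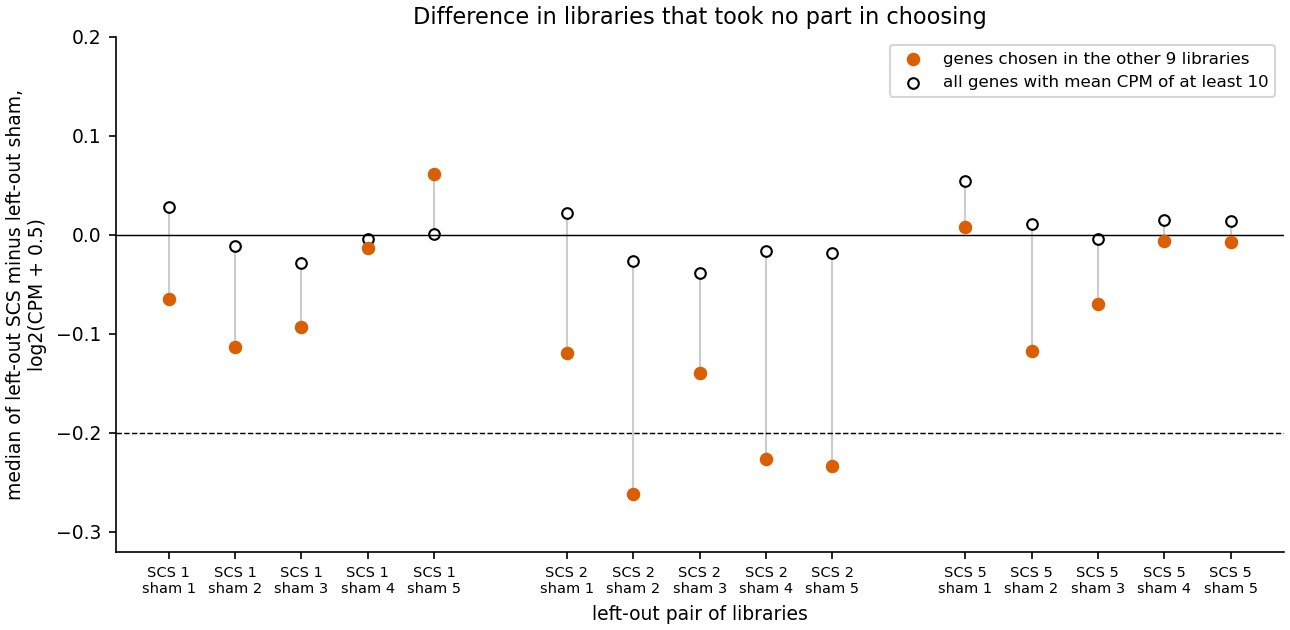
For each left-out pair, named under the x axis, the filled point is the median of the left-out SCS minus the left-out sham library in log2(CPM + 0.5) over the genes chosen in the other 9 libraries, and the open point is the same over all genes with a mean of at least 10 CPM. Filled points lie under open points in all pairs but SCS 1 with sham 5, and they reach the dashed line at -0.2 only in 3 of the 5 pairs with SCS 2.

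In the edgeR quasi-likelihood fit of all 15758 genes that passed its filter on low counts, all 95 selected genes were tested. In SCS against sham, 45 of them passed an adjusted p of 0.05, all lower, where 0.577% of all tested genes were called lower. In SCS against naive 75 passed, all lower, against 4.81% of all tested genes. In sham against naive 0 of the 95 passed, against 0.14% of all tested genes in either direction. An unadjusted p under 0.05 was reached by 0 of the 95, against 1257 of the 15758 tested genes. With DESeq2 it was also 0, against 1280 of 15747. The rule held sham minus naive within 0.09, so these counts of 0 follow from the choice of genes. The rule used these same libraries, so the counts describe the list and nothing is read from them. SCS against sham and SCS against naive share the SCS libraries, and sham enters the other pair of comparisons.

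The median log2 fold change of the 95 genes in this fit was -0.28 in SCS against sham (range -0.53 to -0.22), -0.01 in sham against naive (-0.08 to 0.09) and -0.29 in SCS against naive (-0.52 to -0.16). Over all 15758 genes these medians were -0.01, 0.01 and -0.02. ENSRNOG00000024506 had a log2 fold change of -0.53 ± 0.11 (SE) in SCS against sham, 0.06 ± 0.10 (SE) in sham against naive and -0.47 ± 0.12 (SE) in SCS against naive. ENSRNOG00000046005 was at -0.25 ± 0.07 (SE), 0.03 ± 0.07 (SE) and -0.23 ± 0.08 (SE) in the same comparisons. Both genes were chosen on these values, so no p-value is given for them.

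The count of 45 changed when single libraries were left out, and so did the share of all tested genes called lower, given in brackets. Without SCS 2 it was 1 (0.006%), without sham 2 it was 7 (0.076%), and without sham 1 it was 11 (0.172%). Leaving out sham 3, sham 4 or SCS 1 gave 21, 29 or 23 (0.247%, 0.418% and 0.464%). Without SCS 5 or sham 5 it was 47 or 59 (1.17% and 1.36%). The naive libraries are no arm of this comparison but help to estimate the spread. Without naive 1, naive 2 or naive 3 the count was 17, 18 or 20 (0.205%, 0.194% and 0.207%). DESeq2 gave 77 (1.63%). The count of 75 against naive was 38, 20 and 17 when naive 1, naive 2 or naive 3 was left out. The shares of all tested genes called lower there were 1.05%, 0.771% and 1.25%. Without SCS 2 the count against naive was 19 (0.884%). The sign of the fold changes is fixed by the rule, which kept only genes with all SCS libraries below all others, and says nothing of how the list depends on single libraries.

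How many genes the rule finds depended on its settings and on the libraries. It found 97 genes without SCS 2, but only 61 of the 95 were among them. Without SCS 1 and SCS 5 it found 253 and 303, and 89 and 94 of the 95 were among them. Without sham 5 and sham 1 it found 196 and 146. By construction, leaving out a library makes the condition on overlap easier to meet. Higher numbers, and the return of many of the 95, therefore follow in part from the rule. With library totals adjusted by the trimmed mean of M values (TMM), the scaling used in the edgeR fit, the rule found 147 genes, 94 of them among the 95. The TMM factor of sham 1 was 0.966, the lowest of all (the others were 0.991 to 1.01). The TMM scaling lost 1 of the 95 genes and added 53 others.

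**Figure D5:**
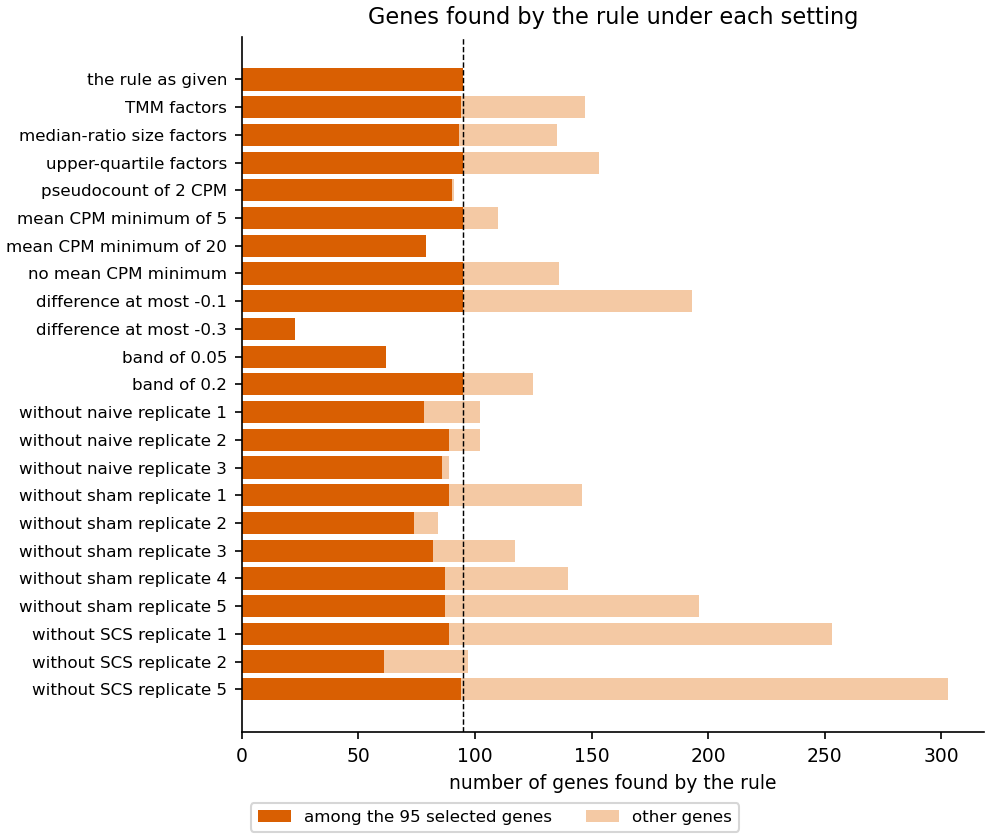
Bars give the number of genes found by the rule under each setting, split into genes among the 95 (dark) and others (light), with a dashed line at 95. Leaving out SCS 1 or SCS 5 lengthens the bar most (253 and 303 genes), while leaving out SCS 2 keeps its length (97) but only 61 of the 95 genes.

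Genes lay close on both sides of most limits. The steps were wider at the upper limit on sham minus naive and at the minimum of 10 CPM. Just inside and just outside the limit of -0.2, SCS minus sham was -0.2001 and -0.1986. The gap nearest above 0 was 0.00028 and the nearest below was -0.00081. Sham minus naive was -0.0890 and -0.0925 on either side of its lower limit and 0.0779 and 0.0948 on either side of the upper one. The lowest mean of a selected gene was 11.1 CPM, and the highest among genes that met all but that condition was 9.51 CPM. A further 248 genes met every condition except that their libraries overlapped, and 41 met all but the minimum of 10 CPM.

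The rule also asks how many genes it finds when the group names are assigned otherwise. Over all 9240 assignments of the 11 libraries to groups of 3, 5 and 3, the number of genes had a median of 8 (interquartile range 4 to 19, highest 340). The labelled groups gave 95, and 295 assignments (3.19%), the labelled one included, gave at least as many. The assignments reuse the same 11 libraries and are not independent of each other, and this is given as a description of the rule.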

How the data were processed

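The authors deposited whole-number counts per Ensembl gene ID. HISAT2, featureCounts, DESeq2 and the build rn6 are named, per the submitters' processing notes; the sources used here give no versions, annotation release or strand setting, so overlapping, antisense and near-identical genes are uncertain. Columns were matched to samples by title, and 17 further sample columns were not used. The gene table (RefSeq, GRCr8, 47357 genes) holds 0 Ensembl IDs, so the 39 gene lists (511 symbols) drawn up for spinal cord were not tested and no RefSeq sequence was matched.

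The rule was applied with a pseudocount of 0.5 CPM. The genes and lists were chosen with earlier results of these data known. All 11 libraries entered 1 edgeR 4.0.16 fit (R 4.3.3; filterByExpr, TMM, glmQLFit with robust estimation, glmQLFTest; 8 residual degrees of freedom; two-sided, Benjamini-Hochberg adjustment over all 15758 genes, threshold 0.05). SEs were taken as |log2 fold change|/√F. Fit and rule were checked on simulated data. Alternatives were DESeq2 1.42.0, other scalings, filters and limits, 2 groups only, the replicate number as a block, and each library left out. The labels do not say that each sample is a separate rat, so p-values measure only the spread between samples. Chi-square per degree of freedom between libraries of a group was 4.98 to 27.8, so none agreed within sampling noise.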

Additional observations from a re-analysis of the deposited data

How the results depend on the processing

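The median log2 fold change of the 95 genes in SCS against sham, which the rule itself holds below 0, was -0.30 to -0.23 over the 18 other fits and is no sign of stability. The rule found 147 genes with TMM and 153 with upper-quartile factors, 193 and 23 with a limit of -0.1 and -0.3 on the difference, 62 with a band of 0.05, and 84 (without sham 2) to 303 (without SCS 5) with 1 library left out. By construction a looser limit finds more genes, and leaving out a library eases the condition on overlap. Of the 95, the number called lower against sham was 77 with DESeq2, 8 in the fit of 2 groups and 82 at an adjusted p of 0.1. With a library left out it was 1 (without SCS 2) to 59 (without sham 5). The shares of all tested genes called lower were 1.63%, 0.083% and 2.01%, and 0.006% to 1.36% with a library left out. Against naive the number of the 95 was 49 in the fit of 2 groups (2.85% of all tested genes). With a library left out it was 17 (without naive 3, 1.25%) to 77 (without sham 5, 6.47%). Over all genes, SCS against sham had 1136 calls with DESeq2, 140 with 2 groups, 1243 at an adjusted p of 0.1 and 36 to 1057 with a library left out. Sham against naive had 133 with DESeq2 and 6 to 56, and SCS against naive 1018 to 2786. The cause was not tested.

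With the replicate number as a block (4 residual degrees of freedom), 0 of the 95 genes passed against sham and 13 against naive. At an unadjusted p under 0.05, 92 of the 95 were lower against sham, as were 1017 of all 15758 tested genes. Over all genes, 5, 9 and 672 passed in SCS against sham, sham against naive and SCS against naive. Same-numbered libraries correlated in their deviations from group means at -0.31 to 0.26 over 8 pairs, and 2 of 10 libraries correlated best with a library of their own number. These correlations cannot settle whether the numbers pair the libraries, and the labels do not say what the numbers stand for.

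The left-out share of 68.3% ranged from 38.3% to 84.6% over the pairs. In alternatives chosen after seeing the data, its median was 72.6% with TMM factors and 65.6% with a limit of -0.3. Depth limits the least abundant genes most: the counting SD at the smallest count, 121, was 0.13 on the log2 scale.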
